A study of Homo sapiens with 12 samples.

Results

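The 10 genes described here are markers of the myeloid lineage, the branch of blood formation that gives rise to granulocytes, monocytes and macrophages: MPO, ELANE, AZU1, PRTN3, LYZ, CEBPA, CSF1R, CD33, TYROBP and FCER1G. They were chosen by symbol, each was found on 1 line of the expression table, and together they make up 10 of its 56593 distinct symbols. Their RNA was followed by RNA-seq through the differentiation of the established human embryonic stem cell line H1, in 4 populations of 3 libraries each. Undifferentiated H1 cells were the start. Mesoderm cells sorted for the apelin receptor (APLNR+) came from day 2, hemogenic endothelial progenitors sorted for CD31 and CD34 (CD31+CD34+) from day 5 and hematopoietic progenitors sorted for CD43 (CD43+) from day 8. All populations shared the H1 genotype with no added gene or deletion, and the 3 sorted ones came from cultures given activin A and BMP4 first and VEGF and bFGF afterwards. As a model, they represent a single cell line. The study's methods speak of independent experiments for its analyses in general, and the labels do not say whether the 3 libraries of a population came from separate cultures, so p values measure the spread between these libraries, which may be technical. The methods also name 2 sequencing companies without saying which libraries each sequenced, so their part in any difference between populations was not tested.

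Myeloid cells are recognised by the enzymes they store in granules, by receptors for colony-stimulating factors, and by immune receptors that signal through small adaptor proteins. MPO, ELANE, AZU1 and PRTN3 encode proteins of the azurophil granules that are made at the promyelocyte stage, whereas lysozyme (LYZ) is made by both granulocytes and macrophages. The transcription factors PU.1 (encoded by SPI1) and C/EBP alpha (encoded by CEBPA) act together in the commitment to this lineage. TYROBP and FCER1G encode adaptors with immunoreceptor tyrosine-based activation motifs (ITAMs), CD33 is a sialic acid-binding inhibitory receptor of the Siglec family, and CSF1R is the receptor for macrophage colony-stimulating factor.

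Values are FPKM, a unit that corrects fragment counts for transcript length and library total, so levels of different genes can be set side by side. The depth of the libraries is unknown. Between 12313 and 13084 entries of each library reached 1 FPKM. An exact 0 can be a failed estimate, since the translation factor gene EEF1A1 was listed at 0 in 6 of the 12 libraries. In bulk RNA of this kind, fewer cells of a type and less RNA per cell cannot be told apart.

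In CD43+ cells the 10 genes fell into a detected and a barely detected set. TYROBP, FCER1G, LYZ, CD33 and CSF1R lay above 4 FPKM in all 3 libraries, whereas CEBPA, AZU1, MPO, PRTN3 and ELANE lay below 1 FPKM in all 3. The summed level of the 10 genes was between 0.900 and 1.29 FPKM over the H1 libraries and between 0.970 and 1.26 FPKM over the APLNR+ libraries. It was between 4.75 and 5.68 FPKM over the CD31+CD34+ libraries and between 66.2 and 98.2 FPKM over the CD43+ libraries. The order of mean levels in CD43+ cells was TYROBP, FCER1G, LYZ, CD33, CSF1R, CEBPA, AZU1 and MPO, and each of the 3 libraries gave this order on its own. PRTN3 was listed in 1 CD43+ library and ELANE in none. Among neighbours in that order, the ranges of TYROBP and FCER1G overlapped, while those of the others from FCER1G to MPO were separate.

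**Figure D1:**
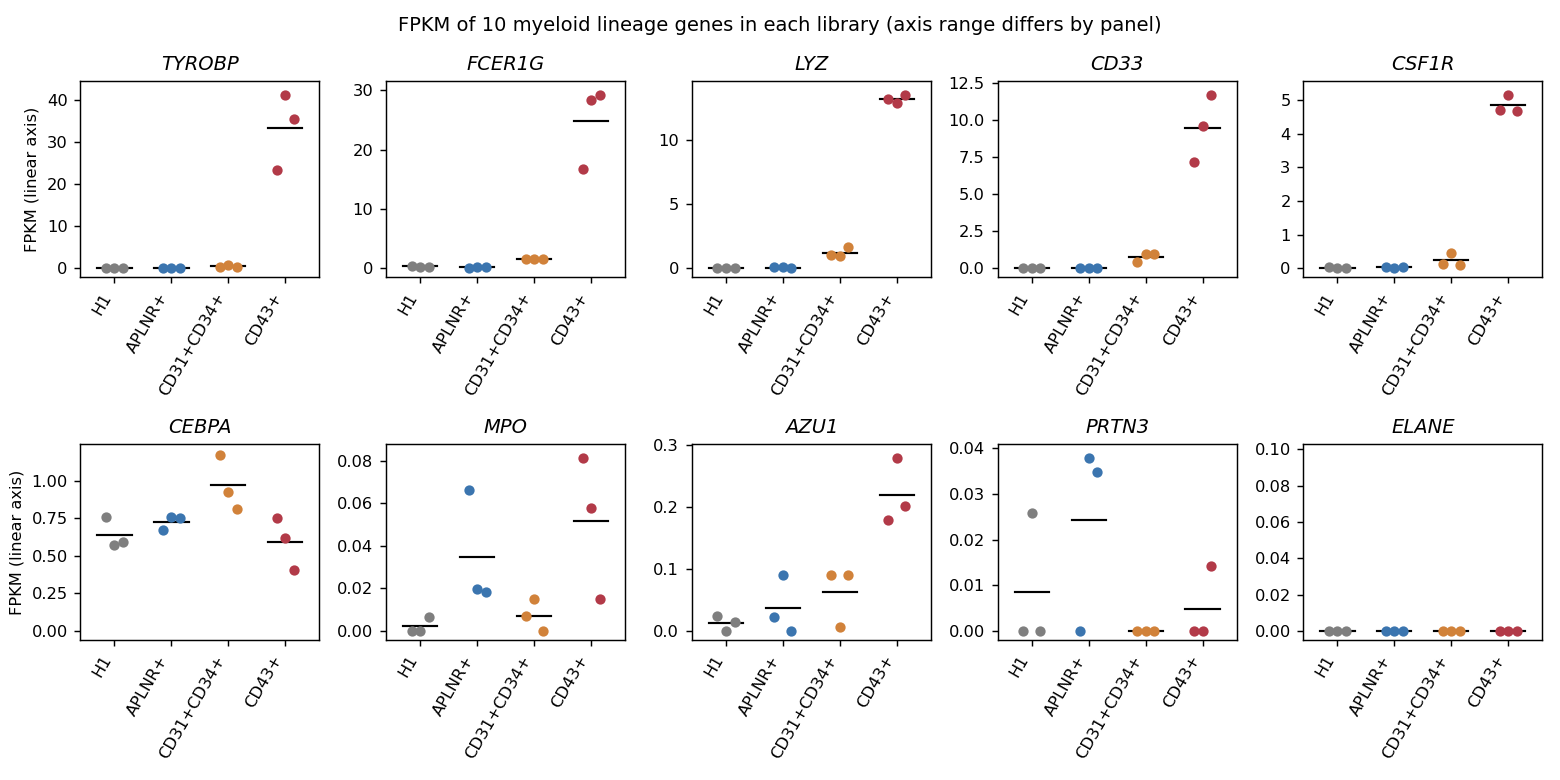
FPKM (linear axis, with its own range in each panel) of the 10 genes in the 12 libraries, grouped by population. Points are libraries and horizontal lines are means of 3; TYROBP, FCER1G, LYZ, CD33 and CSF1R lie above 4 FPKM in CD43+ cells, CEBPA is highest in CD31+CD34+ cells, and the granule genes stay below 0.3 FPKM throughout.

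Of the 5 genes detected in CD43+ cells, sequence before the transcription start is shown for TYROBP, CD33, CSF1R and FCER1G, with PRTN3 beside them. The core bound by PU.1 is marked, since PU.1, a regulator known for CSF1R and CD33, rose at the same step. The part of PU.1 in the rise of the 5 genes was not tested. RefSeq (GRCh38.p14) start sites gave the 250 bases before the start for 7 of the 10 genes, with no sequence shown for MPO, ELANE and LYZ. Each sequence runs 5′ to 3′ in the direction of the gene, and capitals mark GAGGAA or its reverse complement TTCCTC, the core bound by PU.1. The TYROBP window lies on the minus strand at chr19:35908296-35908545, that of CD33 on the plus strand at chr19:51224830-51225079, that of the inner CSF1R start on the minus strand at chr5:150086555-150086804, that of FCER1G on the plus strand at chr1:161215045-161215294, and that of PRTN3, shown as a gene near 0 in these cells, on the plus strand at chr19:840749-840998.
TYROBP: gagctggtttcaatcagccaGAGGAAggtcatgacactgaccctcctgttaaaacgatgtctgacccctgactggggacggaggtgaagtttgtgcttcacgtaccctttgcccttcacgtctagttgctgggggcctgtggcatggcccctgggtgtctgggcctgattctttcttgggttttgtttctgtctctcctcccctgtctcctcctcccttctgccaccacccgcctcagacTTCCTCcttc
CD33: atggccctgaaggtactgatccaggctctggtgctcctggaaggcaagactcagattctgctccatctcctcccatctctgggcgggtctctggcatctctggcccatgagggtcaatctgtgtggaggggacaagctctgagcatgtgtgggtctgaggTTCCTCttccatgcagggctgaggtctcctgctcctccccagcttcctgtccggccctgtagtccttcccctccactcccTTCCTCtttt
CSF1R: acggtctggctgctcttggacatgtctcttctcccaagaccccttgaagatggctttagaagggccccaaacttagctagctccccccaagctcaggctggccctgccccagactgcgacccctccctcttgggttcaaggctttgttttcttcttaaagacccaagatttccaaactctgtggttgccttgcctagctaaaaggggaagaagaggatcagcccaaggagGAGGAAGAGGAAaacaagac
FCER1G: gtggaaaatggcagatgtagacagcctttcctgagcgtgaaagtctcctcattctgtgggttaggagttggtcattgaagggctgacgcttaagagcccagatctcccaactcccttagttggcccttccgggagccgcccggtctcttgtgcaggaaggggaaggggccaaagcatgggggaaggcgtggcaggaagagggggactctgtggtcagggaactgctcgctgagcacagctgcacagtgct
PRTN3: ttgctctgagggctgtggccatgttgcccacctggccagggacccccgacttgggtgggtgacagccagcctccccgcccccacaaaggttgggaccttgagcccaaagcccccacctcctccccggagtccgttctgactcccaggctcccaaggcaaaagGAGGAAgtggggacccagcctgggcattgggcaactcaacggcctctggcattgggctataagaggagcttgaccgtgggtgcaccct

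The core was found 2 times in the TYROBP window, ending 225 and 5 bases before the start, 2 times in that of CD33, ending 85 and 5 bases before it, and 2 times in that of the inner CSF1R start, side by side and ending 15 and 9 bases before it. The FCER1G window held 0 copies and the window of the outer CSF1R start held 0. PRTN3 held 1 copy, and the windows of CEBPA and AZU1 held 0. Of 35116 RefSeq windows of the same length, 23.6% held the core on either strand. The RUNX motif TGTGGT was found once in the FCER1G window and once in the inner CSF1R window, against 10.98% of all windows. The C/EBP motif TTNNGNAA was found in the windows of the inner CSF1R start, AZU1 and PRTN3, against 33.2% of all windows, and the GATA motif AGATAA was found in none of the 7 genes, against 9.17%. These motifs were searched on both strands, and a match describes letters in the window, not binding.

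TYROBP (DAP12) carries the signal of receptors such as TREM2 that have no signaling tail of their own. It was listed at 0 in all 3 H1 libraries, at 0.0800, 0.111 and 0.0323 FPKM in APLNR+ cells, at 0.356, 0.756 and 0.192 FPKM in CD31+CD34+ cells, and at 23.4, 41.2 and 35.6 FPKM in CD43+ cells. All 3 CD43+ libraries lay far above every other library. The CD31+CD34+ mean was 0.435 ± 0.290 FPKM and the CD43+ mean 33.4 ± 9.09 FPKM (SD, n = 3). On the log2(FPKM + 1) scale TYROBP rose by 4.57 ± 0.18 (SE; 95% interval 4.17 to 4.97, limma adjusted p 1.95e-09). Its mean FPKM was 76.9 times higher, because the added 1 FPKM shrinks the fitted change of a gene that starts low. TYROBP reached 1 FPKM in the CD43+ libraries alone, and the fit required that level in at least 3 libraries. The p value of this rise is therefore a description. The step before, from APLNR+ to CD31+CD34+ cells, gave 0.40 ± 0.18 (adjusted p 0.0676), which did not pass.

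FCER1G, the common gamma chain through which Fc receptors and several platelet and natural killer receptors signal, was already listed in every H1 library. These libraries held 0.387, 0.271 and 0.227 FPKM and APLNR+ libraries 0, 0.176 and 0.283 FPKM. In CD31+CD34+ cells the values were 1.60, 1.56 and 1.62 FPKM, a narrow range above all 6 earlier libraries. In CD43+ cells they were 16.7, 28.4 and 29.2 FPKM. FCER1G rose at 2 steps, with a log2 change of 1.18 ± 0.18 (adjusted p 7.41e-05) on entry into CD31+CD34+ cells and of 3.27 ± 0.18 (adjusted p 2.19e-08, 95% interval 2.88 to 3.66) on entry into CD43+ cells. Within CD43+ libraries TYROBP exceeded FCER1G in FPKM by 1.40, 1.45 and 1.22 times, a mean ratio of 1.36 ± 0.121 (SD, n = 3).

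LYZ degrades bacterial cell walls. It stayed at or below 0.0688 FPKM in the 6 libraries of H1 and APLNR+ cells, then stood at 0.999, 0.977 and 1.64 FPKM in CD31+CD34+ cells and at 13.2, 12.8 and 13.5 FPKM in CD43+ cells. Its CD43+ mean was 13.2 ± 0.310 FPKM, with an SD of 2.36% of the mean, against 5.41% for CSF1R and 23.8% to 28.2% for CD33, TYROBP and FCER1G. The rise was 1.07 ± 0.11 (log2, adjusted p 2.68e-06) from APLNR+ to CD31+CD34+ cells and 2.70 ± 0.11 (adjusted p 1.95e-09, 95% interval 2.46 to 2.93) from there to CD43+ cells. CD31+CD34+ replicate 3 decided the earlier call: without it the change was 0.93, under the 2-fold minimum.

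CD33 binds sialic acid on other glycoproteins and dampens activation, and is used clinically as a myeloid surface marker. H1 libraries were at 0.0256, 0 and 0.0339 FPKM, and APLNR+ libraries at 0.0191, 0 and 0 FPKM. CD31+CD34+ libraries were at 0.397, 0.973 and 0.994 FPKM and CD43+ libraries at 7.18, 9.62 and 11.7 FPKM, and neither of these populations overlapped with the one before it. CD33 rose by a log2 change of 2.55 ± 0.16 (adjusted p 8.31e-08, 95% interval 2.20 to 2.90) at the last step, a mean FPKM 12.05 times higher. As for TYROBP, only the CD43+ libraries reached 1 FPKM, so this p value is a description. The step from APLNR+ to CD31+CD34+ cells, 0.81 ± 0.16, had an adjusted p of 0.000661. It fell short of the 2-fold minimum on the log2(FPKM + 1) scale.

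CSF1R, through which CSF1 and IL34 sustain monocytes and macrophages, had the lowest CD43+ level of the 5. H1 libraries held 0.0455, 0.00287 and 0 FPKM, APLNR+ libraries 0.0426, 0.00281 and 0.0275 FPKM, CD31+CD34+ libraries 0.122, 0.465 and 0.106 FPKM, and CD43+ libraries 4.70, 5.14 and 4.68 FPKM. The CD43+ values were tight and every other library was below 0.5 FPKM. CSF1R rose by 2.26 ± 0.10 (log2, adjusted p 5.72e-09, 95% interval 2.03 to 2.49), 21.0 times in mean FPKM. Here too only the CD43+ libraries reached 1 FPKM, so this p value is a description. The gain of 0.25 ± 0.10 from APLNR+ to CD31+CD34+ cells (adjusted p 0.0450) was under 2-fold on the log2(FPKM + 1) scale. Mean FPKM was 9.50 times higher, between low values.

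Of the 10 genes, 5 reached the minimum of 1 FPKM in at least 3 libraries and were tested. TYROBP, CD33 and CSF1R reached it in the CD43+ libraries alone, so their order at the last step was fixed by the minimum. LYZ reached it in those and 1 CD31+CD34+ library and would not have passed without the CD43+ ones. For these 4 the count of calls and the p values at the last step are a description. The same holds at this step for genes named below that passed only through the CD43+ libraries. At that step the 5 were called raised, where 5.58% of the 14840 genes tested were called raised, 8.79% lowered, and the median change of all of them was -0.00492. Tested or not, 7 of the 10 genes had CD43+ libraries that were all above the CD31+CD34+ ones. They were TYROBP, CD33, CSF1R, LYZ and FCER1G, and AZU1 and MPO, both below the minimum. In MPO the lowest CD43+ value was 0.0151 FPKM, against a highest CD31+CD34+ value of 0.0148 FPKM. Of the genes tested, 28% had this order, a share that cannot weigh a count fixed in part by the minimum. From APLNR+ to CD31+CD34+ cells FCER1G and LYZ were called raised, against 12.5% of genes raised and 17.1% lowered. For 6 of the 10 genes, the 5 tested and CEBPA, the CD31+CD34+ libraries were all above the APLNR+ ones, an order that 36.9% of the genes tested had. From H1 to APLNR+ cells limma called 0 of the 5, with 0 at an unadjusted p under 0.05, against 8.3% of genes raised and 7.62% lowered; FCER1G had a change of -0.17 (adjusted p 0.430). Between CD43+ cells and H1, which shares libraries with the other comparisons, the 5 were called raised, against 14.6% of genes raised and 22.5% lowered, with changes of 4.28 for FCER1G, 3.76 for LYZ, 3.34 for CD33 and 2.52 for CSF1R. TYROBP is listed at 0 in H1, so no fold against H1 is given.

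**Figure D2:**
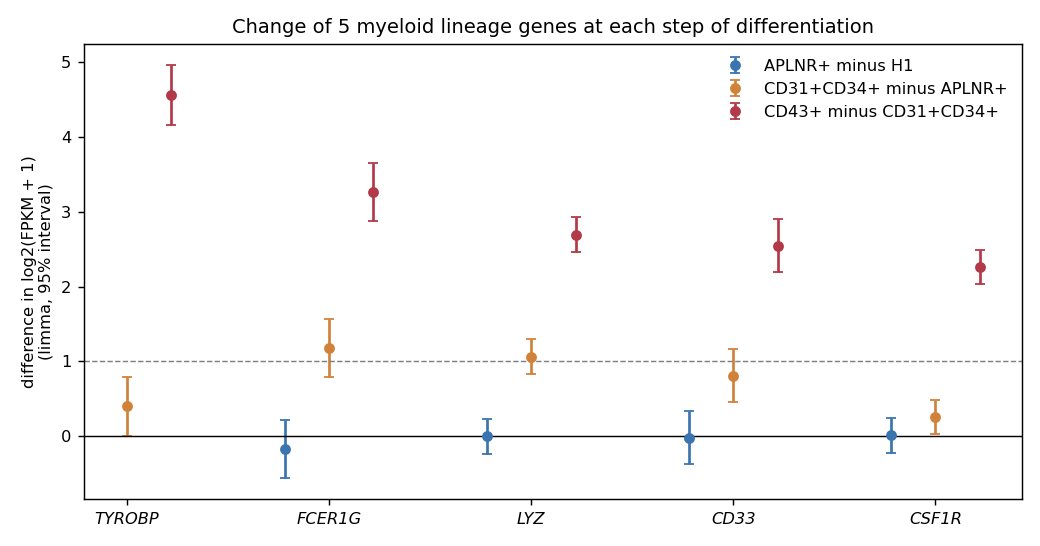
Log2 change, on the log2(FPKM + 1) scale, of TYROBP, FCER1G, LYZ, CD33 and CSF1R at each of the 3 consecutive steps. Points are limma estimates and bars are 95% intervals; at the last step every estimate is above 2. TYROBP is left out of the first step, since it is listed at 0 in H1.

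The levels reached in CD43+ cells differed in rank. TYROBP exceeded 83.0%, 88.8% and 87.6% of the genes tested in the 3 libraries, and FCER1G 77.0%, 83.8% and 84.9%. LYZ exceeded between 69.3% and 72.7% and CD33 between 58.5% and 67.8%. CSF1R lay near the middle, above 45.7% to 48.3% of genes, and CEBPA above 9.34% to 14.9%.

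CD43+ replicate 1 stood apart for part of the set. Relative to the mean of replicates 2 and 3, it held 0.580 of the FPKM for FCER1G, 0.610 for TYROBP and 0.674 for CD33, against a median of 0.890 over 7764 genes with a mean of at least 5 FPKM in CD43+ cells. Only 1.80% of those genes had a lower ratio than FCER1G and 2.60% a lower one than TYROBP. LYZ stood at 1.00 and CSF1R at 0.956, while CEBPA at 1.47 and MPO at 2.23, both under 1 FPKM, were higher in replicate 1. SPN, which encodes the CD43 used for sorting, was at 0.725. Without that library the log2 change at the last step was 4.80 for TYROBP, 3.52 for FCER1G and 2.72 for CD33. The part of this library in the spread of the 10 genes was not tested.

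CEBPA, the C/EBP family member needed for granulocyte formation, was highest in CD31+CD34+ cells. H1 libraries held 0.759, 0.569 and 0.589 FPKM, APLNR+ libraries 0.671, 0.757 and 0.749 FPKM, CD31+CD34+ libraries 1.17, 0.927 and 0.812 FPKM and CD43+ libraries 0.752, 0.618 and 0.405 FPKM. The 3 CD31+CD34+ values were above all CD43+ values, whereas CD43+ and H1 libraries overlapped. The mean was 0.970 ± 0.183 FPKM in CD31+CD34+ cells and 0.591 ± 0.175 FPKM in CD43+ cells, a ratio of 0.610, and the exact two-sided permutation test gave p = 0.1, the smallest that 3 against 3 libraries allow. CEBPA did not reach the minimum for the fit; with no minimum, its change was -0.31 with a limma adjusted p of 0.0536. CEBPA was the single gene of the 10 with this order, which 30% of all genes tested had.

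PU.1 and C/EBP beta, which cooperate with or stand in for C/EBP alpha, were at higher levels. SPI1 was at 0.474 ± 0.228 FPKM in CD31+CD34+ cells and at 11.99, 14.8 and 11.6 FPKM in CD43+ cells, a log2 change of 3.23 ± 0.12 (adjusted p 1.09e-09). CEBPB rose from 4.97 ± 0.732 to 11.8 ± 1.06 FPKM (log2 1.11 ± 0.14, adjusted p 3.71e-05). Each CD43+ library held between 15.9 and 28.7 times as much SPI1 as CEBPA, in FPKM, and between 15.1 and 27.4 times as much CEBPB. Of 16 myeloid transcription factor genes listed as partners, 11 were tested and 7 were called raised at this step, 0 lowered, with a median log2 change of 1.19. Of the 11, 2 passed the minimum only through the CD43+ libraries. Of the other 9 genes 5 were called raised, against 4.34% of all genes that passed otherwise. Raised genes included MYB, needed for blood progenitors (2.54), and IKZF1, which encodes the zinc finger protein Ikaros (2.39). Another was RUNX1, needed for the emergence of blood cells (1.92). JUNB, a subunit of AP-1, was the highest not called, at 43.2 FPKM (0.85). GFI1, a repressor active in granulocyte formation, went from 22.9 to 11.8 FPKM (log2 -0.90, under the 2-fold minimum). IRF8, a factor for monocyte and dendritic cell formation, was below the minimum, at 0.554 ± 0.448 FPKM in CD31+CD34+ cells and at 0.0300, 0 and 0 FPKM in CD43+ cells.

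The azurophil granule genes were at or near 0. MPO, myeloperoxidase, was at 0, 0 and 0.00634 FPKM in the H1 libraries and at 0.0662, 0.0196 and 0.0184 FPKM in those of APLNR+ cells. It was at 0.00688, 0.0148 and 0 FPKM in CD31+CD34+ libraries and at 0.0813, 0.0579 and 0.0151 FPKM in CD43+ libraries. CD43+ libraries were all above CD31+CD34+ ones (exact permutation p = 0.1) but overlapped with APLNR+ libraries. AZU1, azurocidin, was the highest of the 4, at 0.0899, 0.00601 and 0.0908 FPKM in CD31+CD34+ cells and 0.179, 0.279 and 0.201 FPKM in CD43+ cells, a difference of 0.158 FPKM with no overlap (exact permutation p = 0.1). With no minimum, AZU1 had a log2 change of 0.20 (limma adjusted p 0.00681), far under 2-fold on the log2(FPKM + 1) scale. Its mean FPKM was 3.53 times higher, between values near 0. AZU1 was at 0.0896 FPKM or less in the H1 and APLNR+ libraries. PRTN3, proteinase 3, was at 0.0143 FPKM in 1 CD43+ library and 0 in the other two, at 0 in the CD31+CD34+ libraries, and at 0, 0.0379 and 0.0348 FPKM in those of APLNR+ cells, and ELANE, neutrophil elastase, was listed at 0 in all 12 libraries.

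AZU1, PRTN3, ELANE and CFD follow each other as consecutive coding genes on chromosome 19. CFD, complement factor D, was the only one of the 4 to pass the minimum: it was at 0.171 ± 0.128 FPKM in CD31+CD34+ cells and at 1.49, 1.87 and 1.61 FPKM in CD43+ cells (log2 1.19 ± 0.11, adjusted p 2.20e-06). PRSS57, a serine protease gene of the same granules, was below the minimum, at 0.0471 FPKM in CD31+CD34+ cells and 1.24 ± 0.319 FPKM in CD43+ cells. CTSG, cathepsin G, another azurophil protease, rose from 0.304 ± 0.246 to 2.97 ± 0.499 FPKM (log2 1.62 ± 0.13, adjusted p 5.80e-07). Of 18 granule genes listed as partners, 10 were tested and 8 were called raised, 0 lowered, with a median change of 1.497. Of the 10, 7 passed the minimum only through the CD43+ libraries, so their order was fixed by it, though a 2-fold change was not. All 7 were called raised. Of all genes, 527 passed only through the CD43+ libraries, and 207 of these were called raised. Of the other 3 genes 1 was called, against 4.34% of all genes that passed otherwise. CTSC, the protease that activates granule serine proteases, was the highest not called, at 89.1 FPKM (0.71). In H1 cells CTSC was higher, at 173 FPKM. Between CD43+ and H1 cells CTSC changed by -0.97 and CFD by 0.89, neither called, while 8 of the 10 granule genes tested were called raised. The largest changes were PRG2, the eosinophil major basic protein (3.82, to 15.7 FPKM), SRGN, the proteoglycan that packs granules (2.36), and LCN2, lipocalin of specific granules (1.98). RNASE2, RNASE3, EPX, DEFA4 and CAMP, the last a cathelicidin of later granules, were at 0 in the CD43+ libraries.

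The adaptors work with ITAM receptors and kinases, of which 22 genes were listed. At the last step 13 were tested and 12 of these were called raised, 0 lowered, with a median change of 1.79. Of the 13, 8 passed the minimum only through the CD43+ libraries, and of the other 5 genes 4 were called, against 4.34% of all genes that passed otherwise. Among these 4, BTK, VAV1 and LCP2 rose more from APLNR+ to CD31+CD34+ cells (log2 3.56, 3.78 and 3.41) than at the last step (1.34, 1.79 and 1.30). They were already at 25.0, 13.5 and 9.87 FPKM in CD31+CD34+ cells. PLCG2 changed by 0.44 and then by 1.70. HCST (DAP10), which lies tail to tail beside TYROBP on chromosome 19 and also serves as a receptor adaptor, rose from 1.12 ± 0.351 to 30.6 ± 5.51 FPKM (log2 3.90 ± 0.14, adjusted p 1.01e-09). TYROBP was at 0.846, 1.12 and 1.31 times the FPKM of HCST in the 3 CD43+ libraries, so neither was higher in all of them. TREM2, a receptor that depends on TYROBP, was at 0, 0 and 0.0879 FPKM in CD31+CD34+ cells and at 10.3, 11.8 and 9.03 FPKM in CD43+ cells (log2 3.46 ± 0.10, adjusted p 1.25e-10). SYK, the kinase recruited to phosphorylated ITAMs, rose from 0.497 to 7.09 FPKM (log2 2.43 ± 0.14, adjusted p 2.76e-08), and FCGR2A, an Fc receptor with an ITAM of its own, from 0.159 to 4.11 FPKM (2.14 ± 0.10, adjusted p 6.27e-09). LAT, a scaffold downstream of such kinases, changed by 3.62 ± 0.16. LYN, a Src family kinase, was the highest not called, at 21.2 FPKM (0.28). FCGR3A, which signals through FCER1G, CLEC5A, which signals through TYROBP, and LILRA2 were at 0 in the CD43+ libraries.

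Of 14 genes for Siglecs and other inhibitory receptors and their phosphatases, 3 were tested and 1 was called raised, PTPN6 (SHP-1), the phosphatase that binds inhibitory receptors such as CD33, which went from 7.94 to 50.1 FPKM (log2 2.52 ± 0.12, adjusted p 8.79e-09). SIGLEC7, the neighbour of CD33, was at 0.351 ± 0.0986 FPKM in CD43+ cells and SIGLEC10 at 1.08 ± 0.340 FPKM, both below the minimum. PTPN11 (SHP-2), a related phosphatase, was the highest not called, at 14.9 FPKM (-0.18). Of 11 genes for growth factor receptors and their ligands, 8 were tested, 2 were called raised and 0 lowered, with a median change of -0.12. The raised ones were CSF3R, the G-CSF receptor (1.28 to 10.7 FPKM, 2.37 ± 0.12, adjusted p 1.68e-08), and CSF2RB, the common beta chain for GM-CSF, IL-3 and IL-5 (0.324 to 4.16 FPKM, 1.96 ± 0.09, adjusted p 8.04e-09). CSF2RB passed the minimum only through the CD43+ libraries, and of the other 7 genes 1 was called raised, against 4.34% of all genes that passed otherwise. Of all genes tested, 5.58% were called raised and 8.79% lowered at this step. TNFRSF1B, a receptor for tumor necrosis factor, was the highest not called, at 11.9 FPKM (-0.16). CSF1, a ligand of CSF1R, went from 3.23 ± 0.177 to 1.21 ± 0.198 FPKM (log2 -0.94, under 2-fold on that scale). CSF2RA and IL3RA were listed at 0 in CD43+ cells, but so was SLC25A6, a carrier gene used by most cells from the same region shared by the X and Y chromosomes, and nothing is read from these zeros. The 11 genes of that region were looked at after the zeros had been seen, and 10 of them were listed at 0 in every library.

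Of 26 genes listed as monocyte and macrophage markers, 7 were tested, 4 were called raised and 1 lowered. Of the 7, 3 passed the minimum only through the CD43+ libraries, with NCF4 and S100A9 the 2 called raised among them. Of the other 4 genes 2 were called raised, against 4.34% of all genes that passed otherwise. AIF1, an actin-binding protein of macrophages, rose from 0.833 to 36.03 FPKM (4.34), and the NADPH oxidase subunits NCF4 and CYBA changed by 4.19 and 1.80. In H1 cells AIF1 was already at 7.14 FPKM and CYBA at 84.6 FPKM, whereas NCF4 was at 0.0192 FPKM. Between CD43+ and H1 cells AIF1 changed by 2.19, CYBA by 1.78 and NCF4 by 4.17. S100A9, a calcium-binding protein of granulocytes and monocytes, changed by 1.11. MRC1, the mannose receptor, was the highest not called, at 2.45 FPKM (0.49). VCAN, a matrix proteoglycan of monocytes and of mesenchymal cells, fell from 37.6 to 6.47 FPKM (log2 -2.38). CD14, ITGAM and CD68, defining markers of mature monocytes and macrophages, were at 0.0465, 0.235 and 0.493 FPKM in CD43+ cells, and C1QA, C1QB, C1QC, MARCO, S100A8, S100A12, CD86 and MS4A7 were at 0. Over all 107 partner genes, 52 were tested, 34 were called raised and 1 lowered at the last step, and 55 did not reach the minimum. Of the 52, 21 passed only through the CD43+ libraries, and of the other 31 genes 14 were called raised, where 4.34% of all genes that passed otherwise were. The lists were chosen with earlier results of these data known, so this difference is a description. At the step before, 13 of the 52 (25%) were called raised and 3 lowered, against 12.5% of all genes raised and 17.1% lowered. From H1 to APLNR+ cells 6 (11.5%) were called in each direction, against 8.3% of all genes raised and 7.62% lowered. These were 7 raised and 4 lowered when the libraries were rescaled without the 50 highest entries.

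**Figure D3:**
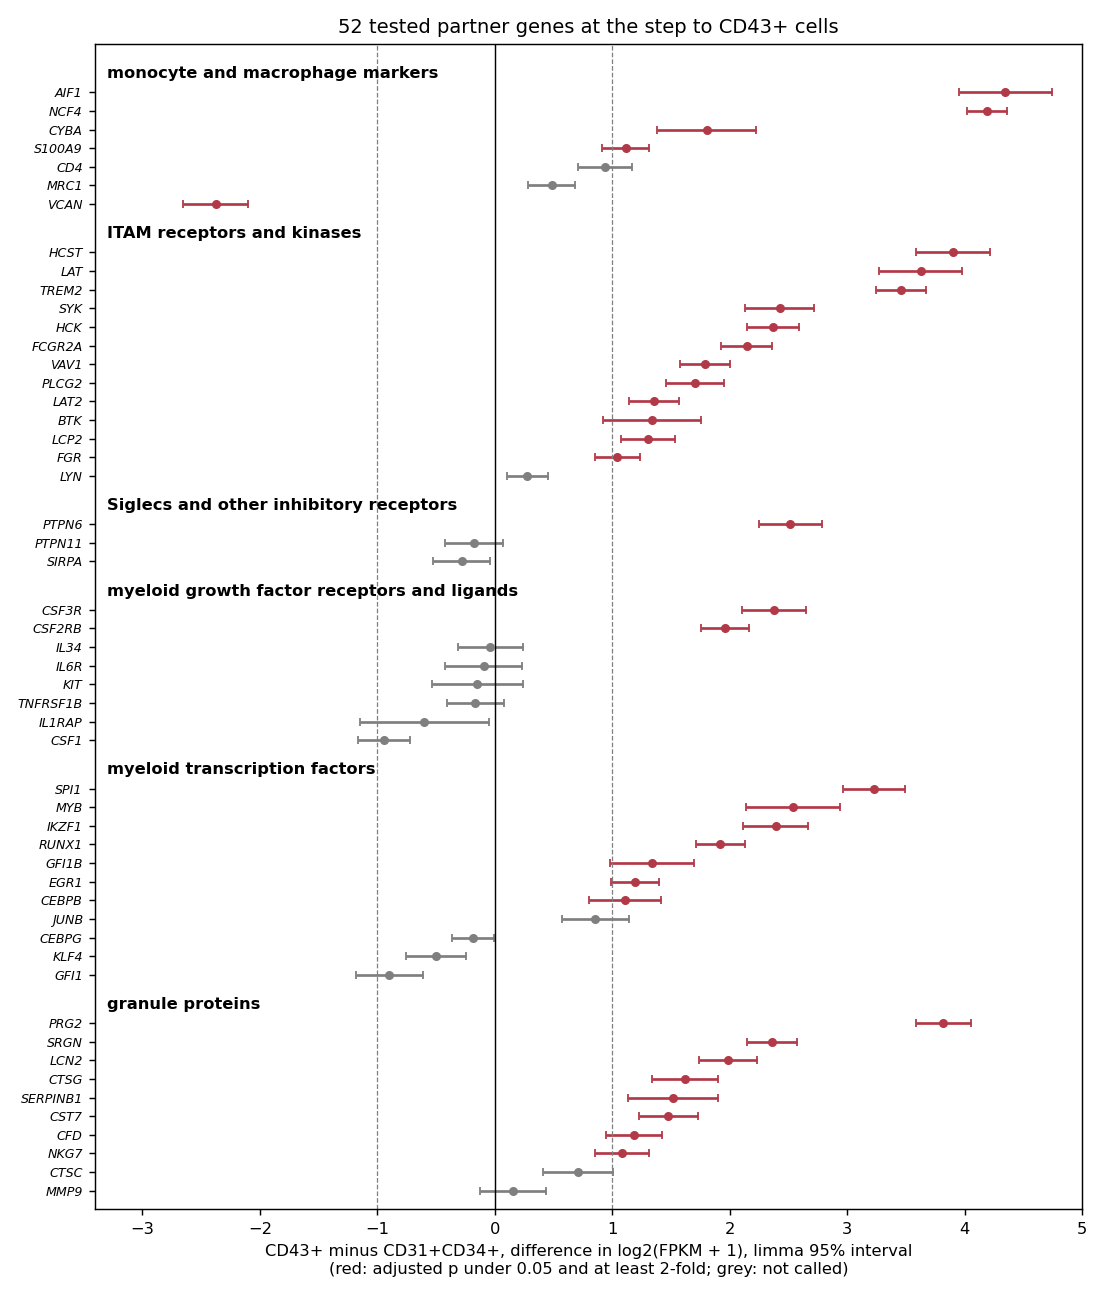
Log2 change from CD31+CD34+ to CD43+ cells, on the log2(FPKM + 1) scale, for the 52 partner genes tested, grouped by role. Points are limma estimates for single genes, bars are 95% intervals, red marks called genes and the dashed lines a 2-fold change; the ITAM group has 12 of 13 genes called raised, 8 of the 13 having passed the minimum only through CD43+ libraries, and VCAN is the gene called lowered.

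Several of the 10 genes are also used by other blood cells, so markers of those cells are given beside them. Markers of megakaryocytes and platelets summed to 23.3 to 30.1 FPKM in CD31+CD34+ cells and 739.99 to 802 FPKM in CD43+ cells, with 10 of 11 genes at a mean of at least 1 FPKM and ITGA2B, the platelet integrin, at 575 FPKM. Erythroid markers summed to between 1842 and 2299 FPKM in CD43+ cells, 10 of 11 at 1 FPKM or more, with the fetal globin HBG2 at 1324 FPKM. Each CD43+ library held between 13.9 and 24.2 times as much ITGA2B as TYROBP and between 36.6 and 48.5 times as much HBG2. Mast cell, basophil and eosinophil markers summed to 24.6 to 28.7 FPKM, from PRG2 and HDC (histidine decarboxylase, 9.73 FPKM) for the most part, while TPSAB1, CMA1, CLC and EPX were at 0. That list counts 2 of 10 genes at 1 FPKM or more. Lymphoid markers summed to between 23.3 and 25.9 FPKM, with 3 of 13 genes at 1 FPKM or more and MS4A1 and RAG2 among those at 0. Of that sum CD79B made up 16.0 to 18.3 FPKM, against 30.4 to 35.2 FPKM in CD31+CD34+ cells, and the other 12 genes 7.26 to 7.83 FPKM, against 1.82 to 3.69 FPKM. Pan-leukocyte markers reached 8 of 9 at 1 FPKM or more, with sums between 328 and 480 FPKM and SPN at 75.5 FPKM, but PTPRC, which encodes the leukocyte antigen CD45, stood at 0.0695, 0.521 and 0 FPKM in the 3 libraries. The share of the rise in TYROBP, FCER1G, LYZ, CD33 and CSF1R that each cell type contributed was not tested.

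**Figure D4:**
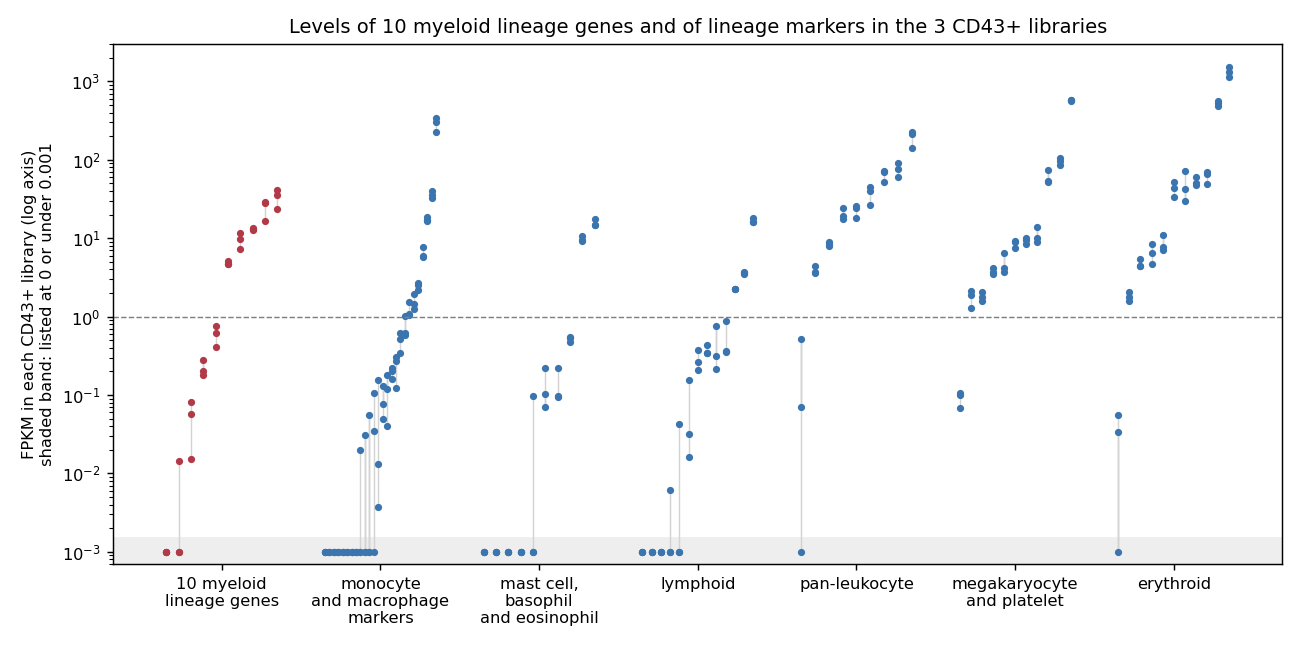
FPKM (log axis) of the 10 genes and of marker lists in the 3 CD43+ libraries. Each column of points is a gene, ordered by mean within its list, values at 0 or under 0.001 are drawn in the shaded band, and the dashed line is 1 FPKM; 5 of the 10 genes lie above it, and so do 10 of 11 megakaryocyte and 10 of 11 erythroid genes.

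Genes whose profiles over the 12 libraries were most like those of the 5 came from several blood lineages. By Pearson correlation of log2(FPKM + 1), with the 3 highest genes of those tested taken for each, LYZ lay closest to NCKAP1L, GATA1 and C11orf21 (r of 0.996 for each) and CD33 to NCKAP1L, SASH3 and GATA1 (0.996, 0.996 and 0.995). GATA1 is the erythroid and megakaryocyte transcription factor, and NCKAP1L a subunit of the actin regulator of blood cells. CSF1R lay closest to RHCE, a blood group gene, SPI1 and TYROBP (0.998, 0.997 and 0.997). TYROBP lay closest to FAM46C, ITGB3 and C16orf54 (0.997 for each), and FCER1G to TREML2, NCKAP1L and GP1BA (0.997, 0.997 and 0.996). ITGB3 and GP1BA encode platelet receptors. Between the 5 genes themselves r ran from 0.971 for LYZ and TYROBP to 0.997 for CSF1R and TYROBP. These values describe 12 points in 4 populations, most of which share low levels outside CD43+ cells.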

How the data were processed

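Groups and replicate numbers came from the sample titles. Libraries were made with an Illumina TruSeq kit from total RNA isolated by Trizol. The authors deposited the FPKM values of all 12 libraries in 1 table. The submitters' processing notes name BWA, Bowtie, RSEM and hg19, with their roles and versions not given, and whether counting used strand is not stated. Of 58366 lines under the header, 1 line of text was dropped. Where a symbol stood on several lines (345 symbols), the highest mean decided which line was used. The FPKM of a library summed to between 568036 and 1576040. Depth, and with it the precision of low values, is unknown. A total of 60 entries stood at 100 FPKM or more in 1 library and at 0 in another.

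Values were transformed as log2(FPKM + 1), and genes at 1 FPKM or more in at least 3 libraries were kept (14840). limma 3.58.1 in R 4.3.3 (lmFit, contrasts.fit, eBayes with trend) was fitted to the 4 populations together, with Benjamini-Hochberg adjustment over all genes of a comparison. Calls required a change of 2-fold or more on the log2(FPKM + 1) scale with an adjusted p under 0.05. Fits with fewer libraries kept the same genes. Members below the minimum were compared by an exact two-sided permutation test. The script was tested on simulated data. Alternatives changed the pseudocount (0.1), the minimum, the scaling, the pairing, the variance prior, the libraries in the fit, the treatment of symbols on several lines and the minimum change.

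The 10 genes and the lists were chosen with earlier results of these data known, and the partner and marker lists were written from general knowledge. Named genes were the 10 in every library, up to 4 partner genes of each list with the largest called changes and the one not called with the highest CD43+ level, and the 3 most similar profiles for each tested gene. CEBPB, FCGR2A, GFI1, CSF1, CFD, PRSS57, SIGLEC7, SIGLEC10, IRF8 and the partner genes at or near 0 were named as neighbours or relatives of the 10. BTK, VAV1, LCP2 and PLCG2 were named for their changes at 2 steps. Same-numbered libraries of CD31+CD34+ and CD43+ cells deviated together from their means (correlations over genes of 0.392, 0.205 and 0.192). So did those of H1 and CD43+ cells (0.386, 0.247 and 0.174). For replicate 3 the highest correlations with differently numbered libraries were close, 0.161 and 0.134. For these comparisons the numbers may therefore pair the libraries. The values printed are from the fit without pairing, and a fit with the replicate number as a block is given as an alternative. From H1 to APLNR+ cells the same-numbered correlations were 0.429, 0.230 and -0.0214, and from APLNR+ to CD31+CD34+ cells 0.196, 0.0254 and 0.0397. In both, replicate 1 alone exceeded its correlations with differently numbered libraries, so whether the numbers pair these libraries is not settled. Tables, motifs and plots were handled in Python 3.11.15 (pandas 2.3.3, numpy 2.4.6, matplotlib 3.10.9, scipy 1.17.1). Motif sequences are on GRCh38.p14 and no coordinates were converted to or from hg19.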

Additional observations from a re-analysis of the deposited data

How the results depend on the processing

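No call of the 5 tested genes reversed under any alternative run. With the replicate block, in which the replicate number pairs the libraries, 0, 2, 5 and 5 of them were called for APLNR+ against H1, CD31+CD34+ against APLNR+, CD43+ against CD31+CD34+ and CD43+ against H1 cells, as without it, and the block changed no call of a member and left the partner counts at 12, 16, 35 and 45. From APLNR+ to CD31+CD34+ cells, where 2 of the 5 were called, 4 were called with no minimum change, 5 with a pseudocount of 0.1 and 1 with a mean of at least 5 FPKM, which left 2 genes to test. Leaving out each library gave between 1 and 2, the lower count without CD31+CD34+ replicate 3. At the last step, and against H1, a mean of at least 5 FPKM gave 2, since it tested 2, and leaving out each library gave between 5 and 5. Partner genes called from H1 to APLNR+ cells numbered 12, against 27 with no minimum change and 21 with a pseudocount of 0.1. From APLNR+ to CD31+CD34+ cells they numbered 16, against 34 and 30. A mean of at least 5 FPKM, which tested 22 partner genes, lowered the count from 35 to 14 at the last step and from 45 to 21 against H1. Rescaling without the 50 highest entries moved the median change of all genes by 0.14 from H1 to APLNR+ cells and by -0.11 at the next step, and quantile normalization by 0.12 for CD43+ against H1 cells, and these left the counts of the 5 genes called at 0, 2, 5 and 5. A pseudocount of 0.1 raised the last-step change of TYROBP from 4.57 to 6.07 and that of CSF1R from 2.26 to 4.06. The number of 3 libraries per population and the unknown depth limit all values under 1 FPKM.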
